A study of Homo sapiens with 10 samples.

Results

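The expression of 12392 genes was compared between K562 cells treated with 5 µM CBP30 and K562 cells treated with the vehicle DMSO, both for 48 h and with 2 samples in each group. These 12392 genes were those of the 23284 in the deposited table whose mean over all 10 samples was at least 0.5 FPKM (fragments mapped to a transcript, scaled by its length and by the size of the library), after genes whose symbols begin with MIR, SNOR, SCARNA or RNU had been set aside. K562 is an established line from a patient with chronic myelogenous leukaemia, driven by the BCR-ABL fusion kinase. The series holds 5 groups of 2 samples, which are DMSO, CBP30 at 2 or 5 µM and I-CBP112 at 2 or 5 µM, and the study's methods describe the 2 samples of a condition as biological replicates. No genetic change distinguishes the groups, and all results are of 1 cell line grown in culture.

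CREBBP and EP300 are paralogous lysine acetyltransferases that acetylate histones at enhancers and promoters and serve as coactivators of many transcription factors. Each has a bromodomain, a small fold that binds acetylated lysine, and CBP30 and I-CBP112 are chemically distinct small molecules that occupy this pocket. K562 cells carry much of the programme of the erythroid lineage, in which GATA1, KLF1, TAL1, LMO2 and their partners act together at the genes of haemoglobin, haem synthesis and the red cell membrane. The oncoprotein MYC, which K562 cells also express at a high level, is known for its action on genes of ribosome production, translation and nucleotide synthesis.

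Erythroid markers were present as the label requires. All 10 of 10 had a group mean of at least 0.5 FPKM in both groups, and their summed level lay between 1904 and 1953 FPKM in DMSO and between 626 and 653 FPKM with 5 µM CBP30. None of 4 monocyte and macrophage markers reached 0.5 FPKM in either group. The epithelial markers KRT19 and EPCAM were expressed in K562 cells, at means of 97.5 and 59.2 FPKM in DMSO and 65.8 and 32.4 FPKM with 5 µM CBP30, and KRT5 was at 0. Within each group the 2 samples differed little, with a median absolute difference of 0.06 on the log2 scale in DMSO and 0.05 with 5 µM CBP30. The sum of FPKM over all genes was 614900 and 611200 in the DMSO samples and 547500 and 551600 in the 5 µM CBP30 samples. FPKM keeps no record of read counts, so the sequencing depth behind each value is unknown. Replicate 1 of 2 µM CBP30 stood apart from the other libraries, with its shortest genes high and its longest genes low, and values without it are given beside the results that it changed most.

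Treatment with 5 µM CBP30 changed a large part of the expressed genes in both directions. Of the 12392 genes, 3235 (26.1%) fell and 2704 (21.8%) rose at a Benjamini-Hochberg adjusted p under 0.05 in a limma fit of log2(FPKM + 1), and these are the genes said to have fallen or risen throughout. All fold changes are on this log2 scale with an added 1, on which scarce transcripts appear to change less than they do in FPKM. The genes that fell had a median log2 fold change of −0.49 and those that rose a median of 0.47, against −0.01 over all 12392. Without replicate 1 of 2 µM CBP30 in the fit, 4262 genes fell and 3753 rose. Counts in the gene lists below are to be read against the shares of 26.1% and 21.8%. Those without replicate 1 of 2 µM CBP30 are to be read against the larger counts just given. Under quantile normalization 3168 genes fell and 3137 rose, and list counts given under it are to be read against these. Most changes stayed below 1 on the log2 scale, which 306 of the falls and 273 of the rises reached. Changes of at least 3 were found for 9 genes that fell and 4 that rose. The genes that fell were the more abundant, with a median of 20.5 FPKM in DMSO against 7.82 FPKM for those that rose. They were also shorter, with median lengths of 3255 and 4296 bases. A trend with length ran through both 5 µM CBP30 samples (correlation of 0.19 in each). In these samples the median log2 difference from DMSO was −0.13 among the shortest genes and 0.11 among the longest. A correction for length and GC content moved these medians to −0.05 and to between −0.009 and −0.002. Of 11778 genes with a known length, 3580 then fell and 3074 rose. Whether the trend came from the libraries or from the treatment was not tested. The values of both CBP30 samples lay beyond both DMSO samples for 10420 genes (84.1%), a count that includes all 5939 genes that passed the test.

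**Figure D1:**
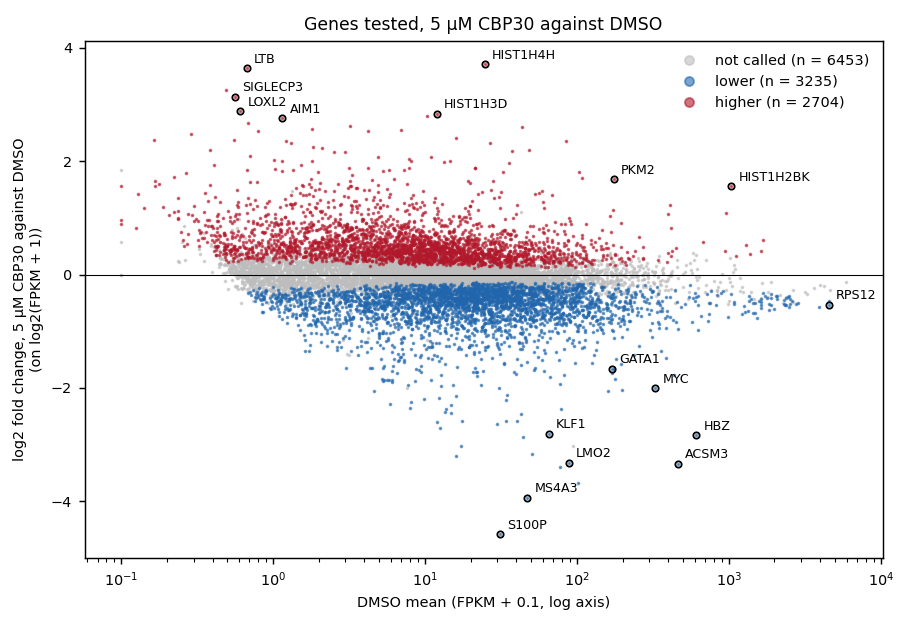
Each point is a gene tested, with its mean in the 2 DMSO samples (FPKM + 0.1, log axis) against its log2 fold change with 5 µM CBP30 (on log2(FPKM + 1)), coloured by whether it was called lower (3235), higher (2704) or neither. S100P and MS4A3 lie lowest and HIST1H4H and LTB highest, and the spread of changes runs to both sides of 0 over the whole range of expression.

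Among the largest falls were myeloid genes and genes of the erythroid lineage. S100P, a calcium-binding protein of the S100 family encoded at chr4:6695605-6698897 (GRCh37), measured 30.2 and 32.2 FPKM in the DMSO samples and 0.225 and 0.482 FPKM with 5 µM CBP30. It was left at 1.13% of its DMSO mean (log2 fold change −4.58, SE 0.11, adjusted p = 7.667e-07). MS4A3, a membrane protein of basophils and myeloid progenitors, went from 45.1 and 48.7 to 2.29 and 1.98 FPKM (log2 fold change −3.93, SE 0.07, adjusted p = 2.696e-07). PRG2, the major basic protein of eosinophil granules, went from 14.5 and 17.3 to 0.883 and 0.776 FPKM (log2 fold change −3.20, SE 0.15, adjusted p = 1.167e-05). The 15 largest falls and the 15 largest rises were chosen among genes whose treated samples lay beyond both DMSO samples. Separation of the groups in these genes, including these 3, was therefore set by the choice. In the wider list of granule and myeloid genes, 11 of 25 were expressed above the filter, of which 5 fell and 2 rose, or 5 and 3 without replicate 1 of 2 µM CBP30.

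Among metabolic and signalling genes the same size of fall was seen. ACSM3, a mitochondrial acyl-CoA synthetase, was an abundant transcript of the control cells, at 454 and 471 FPKM, and measured 46.05 and 43.7 FPKM with 5 µM CBP30 (log2 fold change −3.34, SE 0.06, adjusted p = 2.696e-07). ASS1, the argininosuccinate synthase of arginine synthesis, fell from 50.9 and 50.7 to 4.99 and 4.52 FPKM (log2 fold change −3.17, SE 0.06, adjusted p = 2.696e-07). The collagen galactosyltransferase gene GLT25D2 (now COLGALT2) fell from 76.8 and 77.8 to 6.88 and 6.04 FPKM (log2 fold change −3.39, SE 0.14, adjusted p = 6.215e-06). The samples of each group lay close together in all 3 genes. GRAP2, an adaptor of haematopoietic signalling, fell from 18.2 and 16.4 to 1.15 and 1.32 FPKM, and the aquaglyceroporin gene AQP10 from 12.3 and 11.7 to 1.06 and 1.23 FPKM. FAM178B, whose role is not well described, fell from 104 and 99.9 to 7.28 and 6.80 FPKM. The long noncoding RNA PVT1, encoded beside MYC, fell from 28.9 and 30.2 to 3.78 and 4.003 FPKM. All 15 of the largest falls passed the test in every other setting run.

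**Figure D2:**
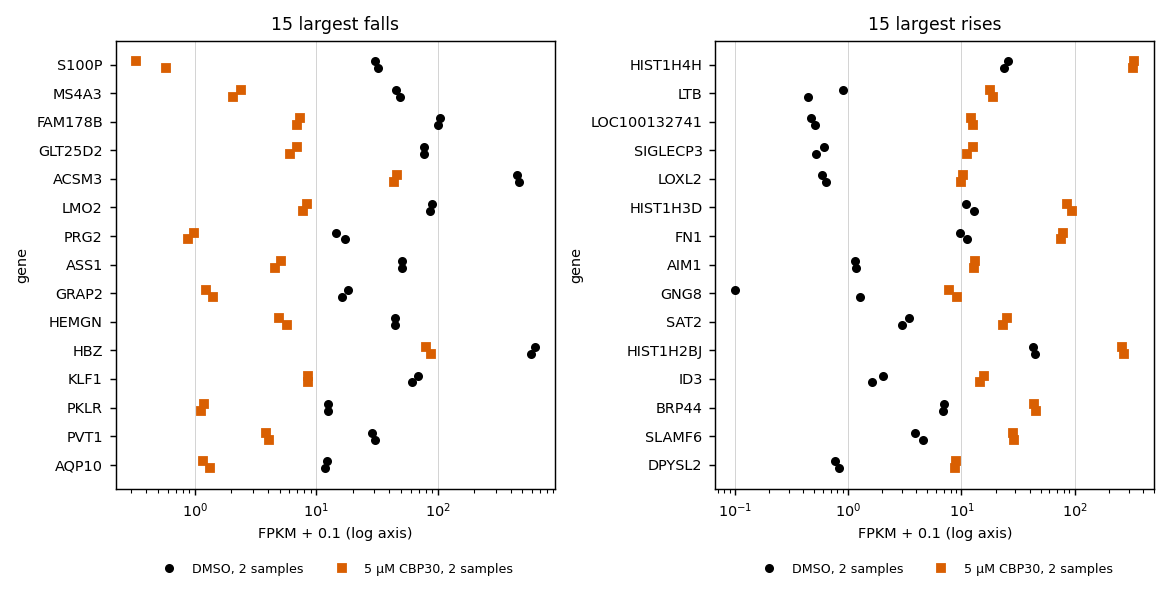
FPKM + 0.1 (log axis) of the 15 genes with the largest falls and the 15 with the largest rises, in each of the 2 DMSO samples (circles) and the 2 samples with 5 µM CBP30 (squares). The genes were chosen among those whose treated samples lay beyond both DMSO samples, so their separation was set by the choice. The gap is many times the distance between samples of a group, except that the DMSO samples of GNG8 are themselves wide apart.

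MS4A3, PKLR and AQP10 carry the hexamer AGATAA, a core that GATA factors bind, close to their start sites, and the 120 bases before each start are shown to place it. The sequences are RefSeq's on GRCh38.p14, written in the direction of transcription, with AGATAA or its reverse complement TTATCT in capitals. MS4A3 lies at chr11:60056545-60056664 (plus strand), PKLR at chr1:155301439-155301558 (minus strand) and AQP10 at chr1:154320973-154321092 (plus strand).
MS4A3: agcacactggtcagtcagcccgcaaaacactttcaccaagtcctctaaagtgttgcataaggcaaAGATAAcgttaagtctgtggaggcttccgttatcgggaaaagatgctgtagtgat
PKLR: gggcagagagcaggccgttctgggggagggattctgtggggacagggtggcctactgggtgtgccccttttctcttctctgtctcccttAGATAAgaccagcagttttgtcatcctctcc
AQP10: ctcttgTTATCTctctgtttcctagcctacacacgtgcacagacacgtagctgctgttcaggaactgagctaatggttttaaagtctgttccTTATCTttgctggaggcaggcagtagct
Over the window from 250 bases before to 50 after the start, on either strand, AGATAA stood in 3 of the 9 largest falls that the promoter table holds. It stood in 10.5% of all 27305 promoters of the table and in 4.95% of the 9543 that belong to genes tested. The share was 5.06% among genes that fell and 5.55% among genes that rose. A match of letters is a description of the sequence and not evidence of a bound site.

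Of 22 transcription factors of the erythroid lineage and its progenitors tested, 11 fell, 3 rose and 8 did not pass, with a median of −0.47. The counts of falls and rises were 12 and 5 without replicate 1 of 2 µM CBP30. LMO2, the bridging protein of the GATA1 and TAL1 complex, measured 90.5 and 86.7 FPKM in DMSO and 8.23 and 7.69 FPKM with 5 µM CBP30 (log2 fold change −3.32, SE 0.07, adjusted p = 4.052e-07). KLF1, the activator of adult globin and many other red cell genes, measured 68.8 and 61.9 FPKM in DMSO and 8.40 and 8.49 FPKM after treatment (log2 fold change −2.81, SE 0.14, adjusted p = 1.445e-05). GATA1, the lineage's defining factor, measured 169.7 and 171 FPKM in DMSO and 53.5 and 52.7 FPKM after treatment (log2 fold change −1.66, SE 0.10, adjusted p = 2.99e-05). In each of these genes the treated samples were well below both controls. HEMGN, a nuclear protein of red cell precursors, fell from 44.4 and 44.1 to 4.83 and 5.68 FPKM, NFE2 from 78.3 and 77.3 to 19.6 and 19.6 FPKM, and the repressor GFI1B by 2.21 on the log2 scale. The cofactors LDB1 and ZFPM1 changed by −1.16 and −0.82, and GATA2 by −0.72. TAL1, the partner of LMO2 in the same complex, went the other way, from 17.4 and 17.4 to 23.4 and 24.1 FPKM (log2 fold change 0.43, SE 0.06, adjusted p = 0.001265), as did GFI1, a repressor of the same family as GFI1B, by 0.78, and SOX6 (log2 fold change 0.35, SE 0.11, adjusted p = 0.03472). The call of SOX6 was lost when any 1 of the 4 libraries compared was left out (adjusted p = 0.08797 to 0.1392). In a fit of only the groups compared SOX6 passed. RUNX1 did not pass the test (log2 fold change 0.02, SE 0.10, adjusted p = 0.9115).

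The globin genes fell without exception among those expressed. The table holds 10, of which 8 passed the filter and all 8 fell, with a median log2 fold change of −1.29. HBZ, the embryonic alpha-like globin (chr16:192727-204502, GRCh37), measured 630.3 and 589 FPKM in DMSO and 80.7 and 88.4 FPKM with 5 µM CBP30 (log2 fold change −2.83, SE 0.20, adjusted p = 5.391e-05). HBG2, a fetal gamma globin, measured 442 and 435 FPKM in DMSO and 122 and 135 FPKM after treatment, and its copy HBG1 255 and 255 FPKM in DMSO and 103 and 109 FPKM after it. The embryonic epsilon globin HBE1 changed least, from 162 and 155 to 92.8 and 91.5 FPKM (log2 fold change −0.77, SE 0.12, adjusted p = 0.001996). HBA1 and HBA2 changed by −1.32 and −1.31, and HBA2 did not pass without replicate 1 of DMSO or replicate 1 of 5 µM CBP30 (adjusted p = 0.08095 and 0.07527). HBG1 and HBG2, and likewise HBA1 and HBA2, are near-identical copies, so the division of reads within each pair is uncertain. Summed over the list, globin RNA was 1615 and 1551 FPKM in the DMSO samples and 448 and 468 FPKM in the treated samples. In RNA from whole cultures, fewer cells of a type and less RNA per cell cannot be told apart.

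Haem and iron genes were affected unevenly. Of 18 genes of haem synthesis and turnover tested, 10 fell and 1 rose (median −0.31). UROD, an enzyme in the middle of the haem pathway, fell from 359.7 and 360.3 to 142 and 139.9 FPKM (log2 fold change −1.35, SE 0.11, adjusted p = 0.0001147), and BLVRB, a biliverdin reductase, from 171 and 169 to 51.7 and 49.6 FPKM (log2 fold change −1.73, SE 0.17, adjusted p = 0.0002318). PPOX, a later enzyme of the pathway, changed by −0.98. The gene that rose was ALAD, the second enzyme of the pathway, by 0.95. The first enzyme of the erythroid pathway, ALAS2, had a log2 fold change of −0.21 (SE 0.09, adjusted p = 0.09169), and passed the test without replicate 1 of 2 µM CBP30 (adjusted p = 0.00294). FECH, which inserts the iron, had a log2 fold change of −0.02 (adjusted p = 0.7335). Among 15 iron genes 7 fell and 4 rose, or 7 and 6 without replicate 1 of 2 µM CBP30. The transferrin receptors TFR2 and TFRC fell by 1.76 and 0.60, the ferrireductase STEAP3 by 1.47 and the iron exporter SLC40A1 by 1.28. The ferritin chains rose, FTL from 1656 and 1688 to 2538 and 2556 FPKM (log2 fold change 0.61, SE 0.15, adjusted p = 0.01574) and FTH1 by 0.41 (adjusted p = 0.0463). Both also passed in a fit of only the groups compared. When any 1 of the 4 libraries compared was left out, neither passed the test (adjusted p = 0.06991 to 0.08118 for FTL and 0.1408 to 0.1771 for FTH1).

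Of 25 genes of the red cell membrane and blood groups tested, 16 fell and 6 rose, with a median of −0.47. ADD2, the beta subunit of the adducin that links spectrin to actin, fell from 8.20 and 7.76 to 0.942 and 0.845 FPKM (log2 fold change −2.25, SE 0.08, adjusted p = 4.52e-06). The adhesion molecule ICAM4 fell by 1.56 and the actin-capping protein TMOD1 by 1.49. The glycophorin genes GYPC and GYPB fell by 1.41 and 0.66, and GYPE had a log2 fold change of −0.004 (adjusted p = 0.9847). The 6 that rose were the complement regulator CD59, by 0.72, the alpha adducin gene ADD1, by 0.55, the cytoskeletal genes EPB41 and EPB49, by 0.52 and 0.23, and the adhesion receptors CD44 and BCAM, by 0.43 and 0.29. The erythropoietin receptor EPOR fell from 7.06 and 6.63 to 2.25 and 2.50 FPKM (log2 fold change −1.22, SE 0.08, adjusted p = 3.782e-05), and STAT5A, a transducer of its signal, by 0.82. Of 11 megakaryocyte and platelet genes tested, 8 fell and 1 rose (median −0.47). ITGA2B, the alpha chain of the platelet fibrinogen receptor, fell from 2.54 and 2.50 to 0.431 and 0.480 FPKM, and FERMT3 and GP1BB fell by 1.29 and 1.27. The exception was the tetraspanin CD9, which rose from 9.66 and 9.62 to 27.6 and 29.3 FPKM (log2 fold change 1.47, SE 0.11, adjusted p = 8.618e-05).

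The pyruvate kinase genes moved in opposite directions. PKLR, the isozyme of red cells and liver, measured 12.5 and 12.4 FPKM in DMSO and 1.09 and 1.02 FPKM with 5 µM CBP30 (log2 fold change −2.71, SE 0.06, adjusted p = 4.052e-07). PKM2 (now PKM), the gene of the isozyme of most other tissues, measured 176 and 174 FPKM in DMSO and 561.6 and 565 FPKM after treatment (log2 fold change 1.68, SE 0.10, adjusted p = 3.256e-05). The neuronal enolase ENO2 also rose, by 1.56, while 10 of the 26 glycolysis genes tested fell and 3 rose, or 14 and 5 without replicate 1 of 2 µM CBP30.

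The oncogene MYC fell to 24.7% of its DMSO mean, from 338 and 320.1 FPKM to 81.7 and 80.9 FPKM (log2 fold change −2.00, SE 0.05, adjusted p = 1.02e-06). The 2 treated samples differed from each other by less than the 2 controls did. Among its relatives MYCL1 (now MYCL) fell by 1.97 and MXI1 by 0.72, and of 12 genes of the MYC and MAX network tested 7 fell and 1 rose. MYB, another oncogene of blood progenitors, fell less, from 124 and 124 to 87.3 and 88.3 FPKM (log2 fold change −0.49, SE 0.05, adjusted p = 0.0003315). CCND1 (cyclin D1) fell from 4.41 and 4.31 to 0.673 and 0.750 FPKM (log2 fold change −1.65, SE 0.10, adjusted p = 3.016e-05) and FOSL1, a FOS family factor, from 6.84 and 5.99 to 1.35 and 1.12 FPKM (log2 fold change −1.73, SE 0.13, adjusted p = 8.072e-05). HMGA1, an architectural chromatin protein, fell from 639.7 and 614 to 321 and 313 FPKM (log2 fold change −0.98, SE 0.07, adjusted p = 8.072e-05). The angiogenic factor VEGFA changed by −1.51.

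The genes of ribosome biogenesis that passed the test moved in a single direction. Of 110 tested, 95 fell and none rose, with a median of −0.58 against −0.01 over all genes. The largest falls among them were in WDR74, a factor of large-subunit assembly (−1.45), and in NOP16, a nucleolar protein that went from 57.01 and 52.4 to 21.8 and 22.01 FPKM (log2 fold change −1.28, SE 0.08, adjusted p = 4.413e-05). NLE1 and NOB1, which act in maturation of the large and the small subunit, changed by −1.21 and −1.15. Abundant nucleolar proteins moved less. NPM1 measured 1622 and 1647 FPKM in DMSO and 1118 and 1131 FPKM with 5 µM CBP30 (log2 fold change −0.54, SE 0.09, adjusted p = 0.0021), and FBL, the methyltransferase of ribosomal RNA, changed by −0.51. NCL changed by −0.26 (adjusted p = 0.008981). The call of FBL was lost when any 1 of the 4 libraries was left out (adjusted p = 0.1006 to 0.1316), and that of NCL without replicate 2 of DMSO (0.0602) or replicate 1 or 2 of 5 µM CBP30 (0.05222 and 0.05509).

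The palindrome CACGTG, the E-box letters that MYC with MAX binds, stood in 34 of the 93 ribosome biogenesis promoters that the table holds (36.6%). Over the same 300-base windows it stood in 7.44% of all promoters and 10.4% of those of genes tested, in 14.4% of the genes that fell and 8.06% of those that rose. The 120 bases before the start are printed for the ribosome biogenesis genes with the largest falls that hold the motif within them, with CACGTG in capitals, from RefSeq on GRCh38.p14. Not every member was eligible, as those without a matched promoter and those on the chromosome that carries MYC were left out. NAT10, an acetyltransferase of ribosomal RNA, lies at chr11:34105509-34105628 (plus strand), the helicase DDX31 at chr9:132669984-132670103 (minus strand) and NOL8 at chr9:92325351-92325470 (minus strand).
NAT10: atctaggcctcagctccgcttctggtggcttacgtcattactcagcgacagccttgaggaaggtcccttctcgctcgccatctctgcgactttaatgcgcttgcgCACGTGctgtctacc
DDX31: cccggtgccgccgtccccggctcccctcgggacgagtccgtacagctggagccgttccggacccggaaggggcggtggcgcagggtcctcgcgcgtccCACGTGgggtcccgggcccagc
NOL8: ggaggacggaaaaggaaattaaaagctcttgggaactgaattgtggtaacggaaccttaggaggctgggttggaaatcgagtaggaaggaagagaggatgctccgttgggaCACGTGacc
NAT10 fell from 44.05 and 44.6 to 26.6 and 26.1 FPKM (log2 fold change −0.73, SE 0.06, adjusted p = 7.604e-05), DDX31 from 9.996 and 10.6 to 6.08 and 5.86 FPKM (log2 fold change −0.70, SE 0.06, adjusted p = 0.000166) and NOL8 from 22.4 and 25.1 to 15.4 and 15.5 FPKM (log2 fold change −0.58, SE 0.10, adjusted p = 0.003086).

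The ribosomal proteins themselves were lower, by less. Of 81 cytosolic ribosomal protein genes tested, 49 fell and 1 rose, with a median of −0.40, and leaving out replicate 1 of 2 µM CBP30 from the fit gave 72 and 1. They are among the most abundant transcripts, and accounted for all 8 of the largest falls in FPKM. RPS12 measured 4603 and 4497 FPKM in DMSO and 3143 and 3135 FPKM with 5 µM CBP30 (log2 fold change −0.54, SE 0.16, adjusted p = 0.0309), and RPS2 measured 4005 and 3897 FPKM in DMSO and 2671 and 2628 FPKM after treatment (log2 fold change −0.58, SE 0.17, adjusted p = 0.02922). When any 1 of these 4 libraries was left out, neither passed the test (adjusted p = 0.1148 to 0.1342 for RPS12 and 0.107 to 0.1308 for RPS2). Their summed level was 146200 and 146900 FPKM in the DMSO samples and 109800 and 110800 FPKM in the treated samples. This group depended on scaling, since quantile normalization moved its median to −0.14, with 42 lower and 3 higher. Mitochondrial ribosomal proteins changed by a similar median, with 51 of 75 lower, 3 higher and a median of −0.42. MRPL12 and MRPS22 both changed by −0.88.

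Other parts of the translation machinery fell as well. Of 20 cytosolic aminoacyl-tRNA synthetases 19 fell and none rose, with a median of −0.60. The largest of these were WARS, from 384 and 392 to 207 and 197 FPKM (log2 fold change −0.94, SE 0.06, adjusted p = 3.091e-05), and FARSA, KARS and VARS, at −0.79, −0.78 and −0.76. Of 15 elongation and release factors 11 fell and none rose (median −0.40). EEF2, which moves the ribosome along the message, measured 1552 and 1513 FPKM in DMSO and 915 and 886 FPKM after treatment (log2 fold change −0.77, SE 0.07, adjusted p = 0.000206). EEF1A1, the most abundant of them, has a value of 0 in the first library of the lower CBP30 dose and gave no usable estimate in the fit of all samples (log2 fold change −0.13, SE 3.36, adjusted p = 0.9851), nor did it pass without that library (adjusted p = 0.1401). Of 54 initiation factors 32 fell and 6 rose (median −0.29), with EIF4EBP1, which restrains cap-dependent initiation, and the subunit EIF3D at −1.10 and −0.99.

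Purine synthesis followed the same course, with 11 of 12 genes lower, none higher and a median of −0.53, and 1 was higher without replicate 1 of 2 µM CBP30. GART, which catalyses several steps of the pathway, fell from 159 and 165 to 90.3 and 91.2 FPKM (log2 fold change −0.83, SE 0.05, adjusted p = 4.185e-05), and IMPDH1 and IMPDH2, which commit the product to guanine nucleotides, by 0.80 and 0.79. PRPS1, which makes the activated ribose, had a log2 fold change of 0.13 (adjusted p = 0.1739). In pyrimidine and deoxynucleotide synthesis 7 of 16 fell and 4 rose, and DHODH and CAD fell by 0.83 and 0.70. The genes of the ATF4 stress response and of serine synthesis, which respond to shortage of amino acids, fell in 26 of 32 cases and rose in 1 (median −0.56), or 30 and 2 without replicate 1 of 2 µM CBP30. ATF5 measured 64.4 and 67.6 FPKM in DMSO and 18.8 and 17.7 FPKM with 5 µM CBP30 (log2 fold change −1.80, SE 0.08, adjusted p = 8.453e-06). TRIB3, a pseudokinase induced by ATF4, and the secreted glycoprotein STC2 changed by −1.57 and −1.48.

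Host genes of small nucleolar RNAs fell in 10 of 14 cases, none rose, and their median of −0.83 was lower than those of the translation lists above. GAS5, a noncoding host gene whose spliced RNA is also a growth-arrest transcript, fell from 723 and 734 to 417 and 405 FPKM (log2 fold change −0.82, SE 0.09, adjusted p = 0.0004542). EPB41L4A-AS1 and SNHG4 changed by −1.32 and −1.21. The small RNAs made from these hosts were not among the genes compared.

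The largest rise was in a histone gene. HIST1H4H (now H4C8), at chr6:26277837-26285866 on GRCh37, encodes histone H4 and measured 25.5 and 23.8 FPKM in DMSO and 338 and 329 FPKM with 5 µM CBP30, 13.6 times the DMSO mean (log2 fold change 3.71, SE 0.07, adjusted p = 2.696e-07). HIST1H3D, a gene for histone H3, measured 10.9 and 12.8 FPKM in DMSO and 85.5 and 95.3 FPKM after treatment (log2 fold change 2.83, SE 0.19, adjusted p = 4.728e-05), and HIST1H2BJ, for histone H2B, 42.6 and 44.3 FPKM in DMSO and 265 and 272 FPKM after treatment (log2 fold change 2.60, SE 0.09, adjusted p = 3.544e-06). All 3 genes are among the 15 largest rises, for which separation from the controls was required. The table holds 73 replication-dependent histone genes, and of the 46 that passed the filter 34 rose and 1 fell, with a median of 1.23. By class, 4 of 4 tested H1 genes rose, 7 of 12 for H2A, 13 of 15 for H2B, 5 of 7 for H3 and 5 of 8 for H4. The only one to fall was HIST3H2A, from 77.6 and 65.5 to 40.3 and 48.8 FPKM (log2 fold change −0.67, SE 0.19, adjusted p = 0.02242).

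The most abundant of these transcripts in DMSO was HIST1H2BK, at 1047 and 1026 FPKM in DMSO and 3047 and 3070 FPKM after treatment (log2 fold change 1.56, SE 0.13, adjusted p = 0.0001041), the largest difference in FPKM among the genes that rose. HIST1H1C, a linker histone, followed with 977 and 927 FPKM in DMSO and 1988 and 2036 FPKM after treatment (log2 fold change 1.08, SE 0.17, adjusted p = 0.002191). The H2B genes HIST2H2BE and HIST1H2BC rose as well, the former from 15.2 and 16.8 to 89.7 and 89.2 FPKM and the latter from 26.9 and 26.2 to 136 and 138 FPKM. The summed level of the list was 2606 and 2512 FPKM in the DMSO samples and 7368 and 7453 FPKM in the treated samples. Among histone genes that are expressed outside S phase and carry ordinary poly(A) tails, 4 of 9 rose and none passed the test as a fall. The rises were led by H3F3B (log2 fold change 0.74, SE 0.08, adjusted p = 0.000299). The median of this list was 0.14, and its lowest log2 fold change was −3.02, in a gene that did not pass. Replication-dependent histone messages normally end in a stem-loop and not in a poly(A) tail, and the libraries were made from polyadenylated RNA. More histone RNA and a larger share of it with a tail therefore cannot be told apart here. Many of these genes are close copies of each other, so the values of single genes are uncertain.

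The promoters of 4 of the histone genes described are shown to place short motifs near their starts. In the 120 bases before the start, the CCAAT letters, the TATAAA letters and the octamer ATTTGCAT are in capitals on either strand, again from RefSeq on GRCh38.p14 in the direction of transcription. HIST1H3D lies at chr6:26199294-26199413, HIST1H2BJ at chr6:27132796-27132915, HIST2H2BE at chr1:149886683-149886802 and HIST1H2BK at chr6:27146859-27146978, all on the minus strand.
HIST1H3D: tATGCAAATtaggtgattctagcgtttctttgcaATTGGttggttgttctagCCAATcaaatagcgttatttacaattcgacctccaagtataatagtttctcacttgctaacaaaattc
HIST1H2BJ: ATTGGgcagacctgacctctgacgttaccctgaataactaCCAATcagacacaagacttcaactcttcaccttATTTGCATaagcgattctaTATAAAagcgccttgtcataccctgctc
HIST2H2BE: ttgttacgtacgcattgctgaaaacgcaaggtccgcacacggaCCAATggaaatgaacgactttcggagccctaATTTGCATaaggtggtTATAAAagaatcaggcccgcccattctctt
HIST1H2BK: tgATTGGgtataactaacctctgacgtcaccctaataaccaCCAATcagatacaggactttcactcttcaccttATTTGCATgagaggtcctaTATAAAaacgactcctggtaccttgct
HIST1H3D lacks TATAAA in this window. The window of HIST1H1C, not printed, holds CCAAT and neither of the other motifs.
In the 300-base windows of the 38 histone promoters that the table holds, CCAAT stood in 34 (89.5%), TATAAA in 25 (65.8%) and the octamer in 15 (39.5%). The corresponding shares of all promoters were 35.7%, 11.95% and 1.80%.

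Beyond the histones, the largest rises were mostly in genes with little or almost no RNA in DMSO. BRP44 and FN1, described below, started from a higher level. LTB, the lymphotoxin beta chain of the tumour necrosis factor family (chr6:31548302-31550299, GRCh37), measured 0.800 and 0.341 FPKM in DMSO and 17.7 and 18.9 FPKM with 5 µM CBP30 (log2 fold change 3.63, SE 0.31, adjusted p = 0.0001356). SLAMF6, a receptor of lymphoid cells, measured 3.77 and 4.47 FPKM in DMSO and 28.5 and 28.8 FPKM after treatment (log2 fold change 2.54, SE 0.08, adjusted p = 2.82e-06). Of 6 lymphoid markers 3 reached 0.5 FPKM in each group, MS4A1 and IL7R were at 0, and the summed level went from between 17.2 and 19.9 FPKM in DMSO to between 27.5 and 30.2 FPKM. The part of other cells in these rises was not tested. Uncharacterised transcripts were also among them, LOC100132741 at 0.371 and 0.404 FPKM in DMSO and 12.2 and 12.4 FPKM after treatment and the pseudogene SIGLECP3 at 0.511 and 0.413 FPKM in DMSO and 12.7 and 11.1 FPKM after treatment. DPYSL2, a protein of the growing axon, rose from 0.662 and 0.722 to 8.87 and 8.62 FPKM (log2 fold change 2.53, SE 0.08, adjusted p = 2.125e-06). The mitochondrial pyruvate carrier gene BRP44 (now MPC2) rose from 6.86 and 6.83 to 43.97 and 45.6 FPKM (log2 fold change 2.54, SE 0.10, adjusted p = 6.09e-06), SAT2 from 3.33 and 2.85 to 25.1 and 23.1 FPKM and AIM1 from 1.04 and 1.06 to 12.9 and 12.9 FPKM. For GNG8, a G protein gamma chain, 1 DMSO sample is listed at 0 and the other at 1.16 FPKM, against 7.64 and 9.10 FPKM after treatment.

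The matrix genes FN1 and LOXL2 and the lectin gene LGALS1 rose, while the list of integrins and cell adhesion was evenly split, with 9 of 28 lower, 9 higher and a median of 0.05. Without replicate 1 of 2 µM CBP30 it had 9 lower and 13 higher. FN1, fibronectin, measured 9.57 and 10.99 FPKM in DMSO and 79.4 and 75.2 FPKM with 5 µM CBP30 (log2 fold change 2.80, SE 0.20, adjusted p = 5.778e-05). LOXL2, which crosslinks collagen and elastin, measured 0.480 and 0.536 FPKM in DMSO and 10.3 and 9.89 FPKM after treatment (log2 fold change 2.88, SE 0.07, adjusted p = 8.756e-07). LGALS1, the lectin galectin-1, measured 108 and 108 FPKM in DMSO and 345 and 358 FPKM after treatment (log2 fold change 1.70, SE 0.17, adjusted p = 0.0002749). The treated samples lay above both controls in each of these genes. Fibroblast markers summed to between 0.730 and 0.758 FPKM in DMSO and between 2.32 and 2.54 FPKM after treatment, most of it COL1A1, and their part in these rises was not tested. Of 52 genes of the actin cytoskeleton 22 rose and 8 fell, with a median of 0.24, or 31 and 12 without replicate 1 of 2 µM CBP30. TMSB10, a monomer-binding thymosin, rose from 402 and 414 to 958 and 955 FPKM (log2 fold change 1.23, SE 0.15, adjusted p = 0.0006818), CORO1A and GSN by 1.20 and 1.17, and CNN1 fell by 1.31. TUBB3 and TUBA1A, tubulins of neurons among other cells, rose by 1.61 and 1.25, with 7 of 21 tubulin genes higher and 1 lower, or 9 and 4 without replicate 1 of 2 µM CBP30.

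Signalling genes moved in both directions. ID3, an inhibitor of basic helix-loop-helix factors, measured 1.91 and 1.51 FPKM in DMSO and 15.6 and 14.4 FPKM with 5 µM CBP30 (log2 fold change 2.57, SE 0.16, adjusted p = 3.54e-05). Of 21 genes of TGF-beta and BMP signalling and the ID family tested, 14 rose and 3 fell, with a median of 0.46. The receptors TGFBR1 and BMPR2 and the target ID2 rose by 0.73, 0.64 and 0.64, and the corepressor TGIF1 fell by 0.71. ID1 had a log2 fold change of 0.40 (adjusted p = 0.1472). It passed in limma with a correction for length and GC content, alone (adjusted p = 0.01689) or with the replicate number as a block (0.0103). BMPR2 did not pass without replicate 2 of 5 µM CBP30 (adjusted p = 0.05273). Of 20 genes of MAPK feedback and output 12 rose and 5 fell (median 0.40). IER3, an early-response gene, measured 29.1 and 26.8 FPKM in DMSO and 87.7 and 90.9 FPKM after treatment (log2 fold change 1.64, SE 0.15, adjusted p = 0.0001592), and the phosphatases DUSP4 and DUSP5 rose by 1.27 and 1.24, while CCND1 and FOSL1, described above, belong to this list and fell. FGFR1, a receptor of fibroblast growth factors, rose from 7.19 and 7.13 to 28.96 and 27.9 FPKM (log2 fold change 1.85, SE 0.05, adjusted p = 1.099e-06), and FGFR3 and the intracellular FGF13 fell by 1.26 and 1.72. JUN and NOTCH1 rose by 1.59 and 1.52. The cytokine signal inhibitors SOCS1 and SOCS2 rose by 1.81 and 1.03.

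Among genes of growth arrest, CDKN1A, the cyclin-dependent kinase inhibitor p21, rose from 5.20 and 5.91 to 16.96 and 18.3 FPKM (log2 fold change 1.51, SE 0.14, adjusted p = 0.0001615). Of 20 p53 target genes tested, 11 rose and 4 fell, with a median of 0.32. BTG2, TP53INP1 and SESN1 rose by 1.45, 1.29 and 1.24, and AEN and the cell death gene BBC3 fell by 0.96 and 0.83. K562 cells are known to lack functional p53, so the name of this list says only where its members were first described. CDKN1B and CDKN2C rose by 0.40 and 0.62, and CDKN1C fell by 0.90. Over all genes 21.8% rose and 26.1% fell. Near these shares are, below, the 21.4% of mitosis genes that rose and the 26.7% of the BCL2 family that fell. The proliferation markers MKI67 and PCNA had log2 fold changes of 0.27 and 0.24 (adjusted p = 0.356 and 0.1765), and both passed the test without replicate 1 of 2 µM CBP30 (adjusted p = 0.02392 and 0.0005871). Of 56 mitosis genes 12 rose and 8 fell, which became 19 and 14 without replicate 1 of 2 µM CBP30 and 19 and 4 under quantile normalization. Of 47 DNA replication genes 18 fell and 9 rose, which became 20 and 13 without that library and 11 and 16 under quantile normalization. In the BCL2 family 7 of 15 rose and 4 fell, or 8 and 6 without that library, with PMAIP1 and BCL2L1 at 0.85 and 0.53 and BOK at −0.90.

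The pathway of cholesterol synthesis and uptake rose in 17 of 25 genes and fell in 1, with a median of 0.33, or 18 and 4 without replicate 1 of 2 µM CBP30. INSIG1, the sterol-sensing anchor of the pathway, measured 19.5 and 19.98 FPKM in DMSO and 45.5 and 48.3 FPKM with 5 µM CBP30 (log2 fold change 1.21, SE 0.06, adjusted p = 1.124e-05). The treated samples lay above both controls. TM7SF2, a sterol reductase, and STARD4, a carrier of cholesterol between membranes, rose by 1.18 and 0.98. SREBF2, a transcription factor of the pathway, had a log2 fold change of −0.09 (adjusted p = 0.3985), and NSDHL was the gene that fell in the fit of all samples, by 0.37. Lysosomal genes rose in 18 of 51 cases and fell in 6 (median 0.18), or 29 and 10 without that library and 28 and 5 under quantile normalization. They were led by the sterol carrier NPC2, from 19.3 and 18.7 to 60.4 and 63.4 FPKM (log2 fold change 1.65, SE 0.13, adjusted p = 0.0001026). NQO1, a quinone reductase under the control of NRF2, rose from 23.2 and 23.8 to 64.6 and 68.1 FPKM (log2 fold change 1.46, SE 0.09, adjusted p = 3.505e-05). IFI16, a DNA sensor induced by interferon, rose from 1.99 and 1.99 to 12.98 and 13.2 FPKM (log2 fold change 2.24, SE 0.07, adjusted p = 2.82e-06), in a list of 28 interferon genes of which 9 rose and 7 fell.

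**Figure D3:**
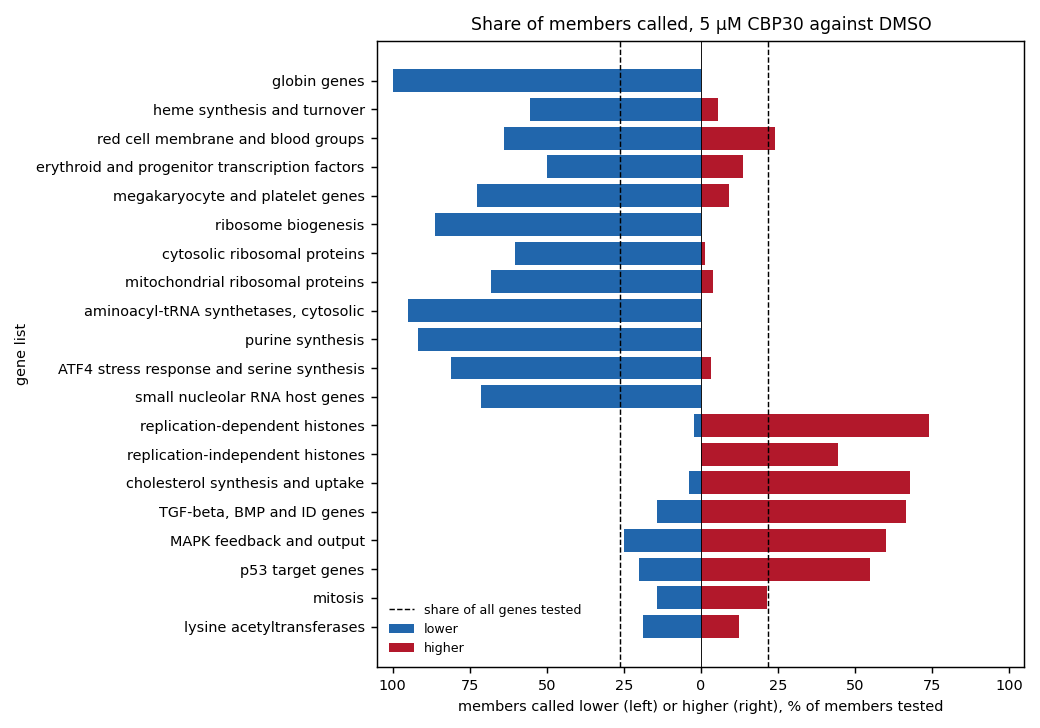
Share of tested members called lower (bars to the left) and higher (bars to the right) in each gene list, in percent, with dashed lines at the shares of all genes tested (26.1% lower and 21.8% higher). Globin genes (8 of 8 lower), cytosolic aminoacyl-tRNA synthetases (19 of 20 lower) and replication-dependent histones (73.9% higher) extend far beyond the lines.

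The genes of the targeted proteins did not pass the test in the fit of all samples. CREBBP measured 6.27 and 6.63 FPKM in DMSO and 9.10 and 8.67 FPKM with 5 µM CBP30 (log2 fold change 0.41, SE 0.17, adjusted p = 0.08262), and EP300 7.64 and 8.09 FPKM in DMSO and 10.7 and 10.2 FPKM after treatment (log2 fold change 0.37, SE 0.23, adjusted p = 0.2156). The treated samples lay above the controls in both genes, and without replicate 1 of 2 µM CBP30 the same differences had adjusted p = 0.004036 and 0.002431. Of 16 lysine acetyltransferases tested, 3 fell and 2 rose, or 5 and 7 without that library. KAT2B rose from 7.69 and 8.15 to 14.9 and 13.97 FPKM (log2 fold change 0.79, SE 0.09, adjusted p = 0.0004155), and KAT2A, its paralogue, changed by −0.43. Among 10 genes of the BET proteins and the elongation kinase P-TEFb with its inhibitors, HEXIM1 rose from 8.98 and 9.14 to 15.98 and 15.96 FPKM (log2 fold change 0.75, SE 0.07, adjusted p = 0.0001391), BRD2 and CDK9 rose by 0.37 and 0.30, and BRD3 fell by 0.31. The call of CDK9 was lost when any 1 of the 4 libraries compared was left out (adjusted p = 0.1058 to 0.1545). CDK9 passed in a fit of only the groups compared. TET1 had a log2 fold change of −0.12 (adjusted p = 0.5507) and passed with a correction for length and GC content, alone (adjusted p = 0.02224) or with the replicate block (0.03583), and HMGA2 was below the filter. The common reference gene GAPDH had a log2 fold change of −0.15 (adjusted p = 0.2317), whose sign turned under quantile normalization and which passed without replicate 1 of 2 µM CBP30 (adjusted p = 0.02722) and in a fit of only the groups compared (0.006492). ACTB rose from 1386 and 1377 to 1753 and 1792 FPKM (log2 fold change 0.36, SE 0.12, adjusted p = 0.0412). The call of ACTB was kept in a fit of only the groups compared. It was lost when the samples were centred on their medians and when any 1 of the 4 libraries was left out.

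The 30 genes with the largest changes were then followed across the other treatments. They were chosen by their change with 5 µM CBP30, so a smaller change in the other treatments is partly set by the choice. All comparisons with DMSO share the same 2 DMSO samples, so values against DMSO are given side by side and the differences between treatments rest on direct tests. At 2 µM CBP30, where 2066 genes (16.7%) were lower and 2022 (16.3%) higher than in DMSO, all 15 falls were also lower, with a median of −1.95. Without its replicate 1 these counts were 2521, 2178 and 15, with a median of −2.01. At 5 µM I-CBP112, where 414 genes (3.34%) were lower and 485 (3.91%) higher, 13 of the 15 were lower, with a median of −1.15. FAM178B and PVT1 did not pass (adjusted p = 0.08537 and 0.05113). Of the 15 rises, all were higher at 2 µM CBP30 (median 1.83), or 14 without its replicate 1 (median 1.85), and 12 at 5 µM I-CBP112 (median 1.08), where LTB, LOC100132741 and GNG8 did not pass (adjusted p = 0.5421, 0.08025 and 0.2632).

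The compounds were compared directly at the matched dose of 5 µM and 48 h. CBP30 gave lower values than I-CBP112 for 2271 genes (18.3%) and higher values for 1725 (13.9%). These counts depended on single libraries, and were 3587 and 3049 without replicate 1 of 2 µM CBP30, 1142 and 736 without replicate 1 of 5 µM CBP30, and 1121 and 701 without its replicate 2. All 15 falls were lower with CBP30, by a median of −2.00 (range −3.44 to −1.26), and all 15 rises were higher, by a median of 1.71 (range 0.83 to 3.25). These genes were chosen by their change in the same 5 µM CBP30 samples, so this outcome was favoured in advance. The acyl-CoA synthetase gene ACSM3 measured 348 and 339.8 FPKM with 5 µM I-CBP112, between the DMSO and the CBP30 samples. With 5 µM I-CBP112 MYC measured 205 ± 6.32 FPKM and GATA1 134 ± 6.34 FPKM (mean ± SD, n = 2), and both differed from 5 µM CBP30 (log2 difference −1.32, adjusted p = 1.913e-05 and −1.32, adjusted p = 0.0002254). The histone gene HIST1H2BK did not separate the compounds. It measured 2544 and 2463 FPKM with I-CBP112, and its difference of 0.29 (adjusted p = 0.1233) had a 95% interval from −0.01 to 0.58. With 5 µM I-CBP112 the medians of whole lists were −0.52 for globin genes, −0.19 for ribosome biogenesis, −0.004 for cytosolic ribosomal proteins and 0.54 for replication-dependent histones. The corresponding medians with 5 µM CBP30 were −1.29, −0.58, −0.40 and 1.23.

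The doses of CBP30 differed in 2713 genes (21.9%) that were lower and 2240 (18.1%) that were higher at 5 µM than at 2 µM. The counts were 746 and 478 without replicate 1 of 5 µM CBP30, 626 and 382 without its replicate 2, and 2299 and 1940 without replicate 1 of 2 µM CBP30. All 15 falls were lower still at 5 µM (median −1.28, or −1.06 without replicate 1 of 2 µM CBP30), and 12 of the 15 rises were higher. These genes were chosen by their change at 5 µM, so this outcome was favoured in advance. When only the samples of both doses were fitted, 1 of the 15 falls and 0 of the 15 rises passed the test. In the fit of all samples ID3 did not separate the doses, with a 95% interval of the difference from −0.38 to 0.38. It measured 18.02 FPKM in replicate 1 of 2 µM CBP30 and 12.5 FPKM in replicate 2. HIST1H2BK differed by 0.02 (adjusted p = 0.8956, 95% interval −0.27 to 0.32). Both differences include replicate 1 of 2 µM CBP30, in which the summed histone level was 7797 FPKM against 5777 FPKM in replicate 2. When only these 4 samples were fitted, 1 gene was lower and 0 were higher at 5 µM in limma, and 2075 and 1551 at an unadjusted p under 0.05, so the dose comparison rests on the spread shared with the other groups. Medians at 2 µM were −1.02 for globin genes, −0.30 for ribosome biogenesis, 0.19 for cytosolic ribosomal proteins and 0.71 for replication-dependent histones. Without replicate 1 of that dose they were −1.24, −0.32, −0.01 and 0.63, so the sign of the ribosomal protein median rested on that library.

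**Figure D4:**
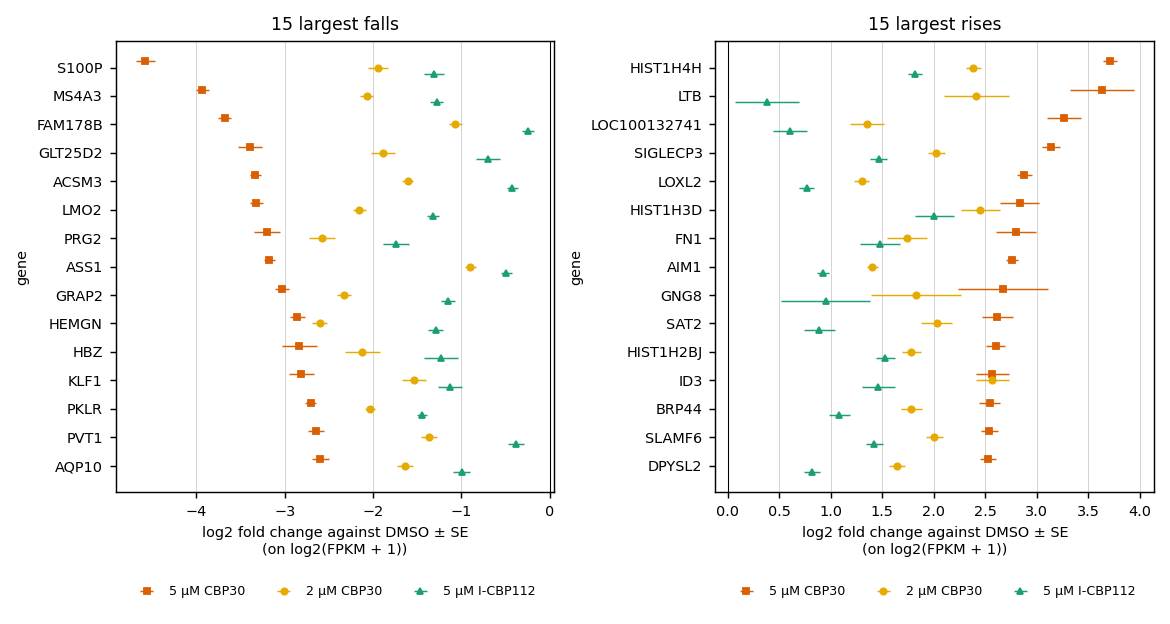
Log2 fold change against the shared DMSO samples (± SE, on log2(FPKM + 1)) of the 15 genes with the largest falls and the 15 with the largest rises with 5 µM CBP30, for 5 µM CBP30, 2 µM CBP30 and 5 µM I-CBP112. For most genes 5 µM CBP30 lies farthest from 0 and 5 µM I-CBP112 nearest, while the 2 doses of CBP30 lie together for ID3. The 2 µM value of ID3 includes replicate 1 of that dose, where its level was well above that of replicate 2. The genes were chosen by their change with 5 µM CBP30, which favours its place farthest from 0.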

How the data were processed

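RNA of K562 cells was measured in 10 samples, 2 for each of 5 treatments of 48 h. From poly(A)+ RNA the authors prepared strand-specific libraries, read 50 bases from 1 end, and deposited 1 table of FPKM values per gene and sample. Per the submitters' processing notes, reads were aligned to hg19 with TopHat2 2.0.10, Bowtie 1.0.0 and SAMtools 0.1.19, and FPKM came from Cufflinks 2.2.1 and Cuffnorm. The annotation version is not given in the sources used here. Cuffnorm scales libraries to each other, which fixes the centre against which genes rise or fall.

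Groups were taken from the sample labels. The 12788 genes averaging 0.5 FPKM or more, including 396 small RNA genes that were then set aside, were fitted in R 4.3.3 with limma 3.58.1 on log2(FPKM + 1). All 10 samples shared 1 fit with group means and a variance trend, and p-values were adjusted by Benjamini-Hochberg over the 12788 genes. All p-values are two-sided and measure the spread between samples. Read counts were not used here, so depth is unknown and no count test was run. On simulated data the fit called 85 of 100 genes changed by 1 and 59 of 100 changed by 0.5 on the log2 scale, and 6 unchanged genes. The simulated samples had independent noise, few changed genes and no library set apart, so these rates need not hold for these data.

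The genes and the 73 lists were chosen with earlier results of these data known. Genes named were the 15 largest falls and rises among genes whose higher group averaged 5 FPKM or more and whose groups did not overlap, the 8 largest changes in FPKM each way, those under 1 FPKM in DMSO with the highest treated level, up to 4 members of each list with the largest change, genes with a defining role and genes named in the study. HIST3H2A, HIST1H2BC, NSDHL, AEN, PRPS1, ALAD, GFI1, GYPE and the red cell membrane genes that rose were chosen after their values were seen, and NAT10, DDX31 and NOL8 by their promoters. Lengths and GRCh37 coordinates came from GENCODE, matched by symbol for 95.05% of genes. RefSeq promoters (GRCh38.p14) were matched for 9543 genes. The results were recomputed under 15 other settings, and leaving out replicate 1 of 2 µM CBP30 was added after seeing the data. Replicate numbers did not pair the samples, so no block was used. Some genes of the lists described are not reported here by name.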

Additional observations from a re-analysis of the deposited data

How the results depend on the processing

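Over the alternatives to the comparison of 5 µM CBP30 with DMSO, the count of genes that fell stayed between 2223 and 4262 and the count that rose between 1811 and 3753, against 3235 and 2704. No named gene that was called turned in direction. Of 358 named genes, between 43 and 47 lost their call when 1 of the 4 libraries compared was left out, 16 with no filter on low values and 12 with median centring, while 10 gained a call without replicate 1 of 2 µM CBP30. In a fit of only the groups compared, 1 of the 358 lost its call and 10 gained one. With the replicate number as a block 3116 genes fell and 2602 rose and 8 named genes lost their call. The numbers did not pair the samples, since deviations of same-numbered samples correlated between −0.28 and 0.15 over the pairs of groups. A fit of only the groups compared gave 3507 lower and 3002 higher genes for 5 µM CBP30 against 5 µM I-CBP112, and 1 lower and 0 higher for 5 µM against 2 µM CBP30 in limma (2075 and 1551 at an unadjusted p under 0.05). Leaving out 1 library gave 1121 to 3587 lower and 701 to 3049 higher genes between the compounds, both highest without replicate 1 of 2 µM CBP30, and 626 to 2299 lower and 382 to 1940 higher genes between the doses. A lone remaining sample was taken to vary like the other groups. The cause of these shifts was not tested. FPKM alone does not show how far depth limits the scarcer genes.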
